A study of Mus musculus with 4 samples.

Results

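The genes described here carry glucose into the cell and break it down to lactate, in mouse embryonic stem cells that do or do not express an always-active version of the kinase Akt. They are the glucose transporter genes Slc2a1 and Slc2a3, the hexokinase genes Hk1 and Hk2, the phosphofructokinase genes Pfkp and Pfkl, Aldoa, Pgk1, Ldha and Pdk1. Every probe set that the platform annotation assigns to 1 of these 10 genes and to no other was taken, which gave 14 of 12422 probe sets once the array's own controls were left out, for 10 of 8251 named genes. They lie on chromosomes 2 (Pdk1), 4 (Slc2a1), 6 (Slc2a3 and Hk2), 7 (Aldoa and Ldha), 10 (Hk1 and Pfkl), 13 (Pfkp) and X (Pgk1). No probe set was shared between a member and another gene. The samples were total RNA of E14tg2a, a mouse embryonic stem cell line grown without feeder cells, on 4 Affymetrix arrays. Control cells were grown in medium containing 3000 U/ml of the cytokine LIF (leukemia inhibitory factor) or without it for 4 days, and cells labelled Akt12, which express the active Akt (called Akt cells), were grown in the same way. Each of the 4 groups was 1 array. The labels do not state whether the Akt cells are 1 clone, which promoter drives Akt or whether a vector without Akt is present in the controls, so a difference of a clone from the control cells cannot be told apart from that of Akt.

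Glucose enters these cells through facilitative transporters and is trapped by hexokinase as glucose 6-phosphate. Phosphofructokinase then commits it to glycolysis, aldolase and phosphoglycerate kinase act further down, and lactate dehydrogenase turns pyruvate into lactate, while pyruvate dehydrogenase kinase keeps pyruvate out of the citric acid cycle. Undifferentiated mouse embryonic stem cells are known for strong glycolysis beside respiration. LIF keeps them undifferentiated through STAT3, and Akt is known in other cell types to raise glucose uptake and glycolysis. Pdk1 here is the mitochondrial pyruvate dehydrogenase kinase, not the kinase that phosphorylates Akt, which shares that abbreviation.

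The main pattern was that 3 of the 10 genes differed strongly between arrays while the other 7 stayed within 2-fold in each of the 4 comparisons after normalization. Pfkp was lower without LIF in both lines and higher in Akt cells than in control cells. Slc2a3 was highest, and Pdk1 lowest, on the array of control cells without LIF. Over the 4 arrays the log2 range of the probe set with the highest mean was 3.93 for Pfkp, 2.14 for Slc2a3 and 1.48 for Pdk1. It was 1.11 for Slc2a1 and 1.05 for Hk2, and between 0.08 for Hk1 and 0.70 for Pfkl among the other 5. Of 5027 genes above the detection floor on all 4 arrays, 0.358% had a wider range than Pfkp, 4.04% than Slc2a3, 10.4% than Pdk1 and 99.8% than Hk1. The median range of those genes was 0.67, so the wide and the narrow end of that distribution both held members of the pathway.

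**Figure D1:**
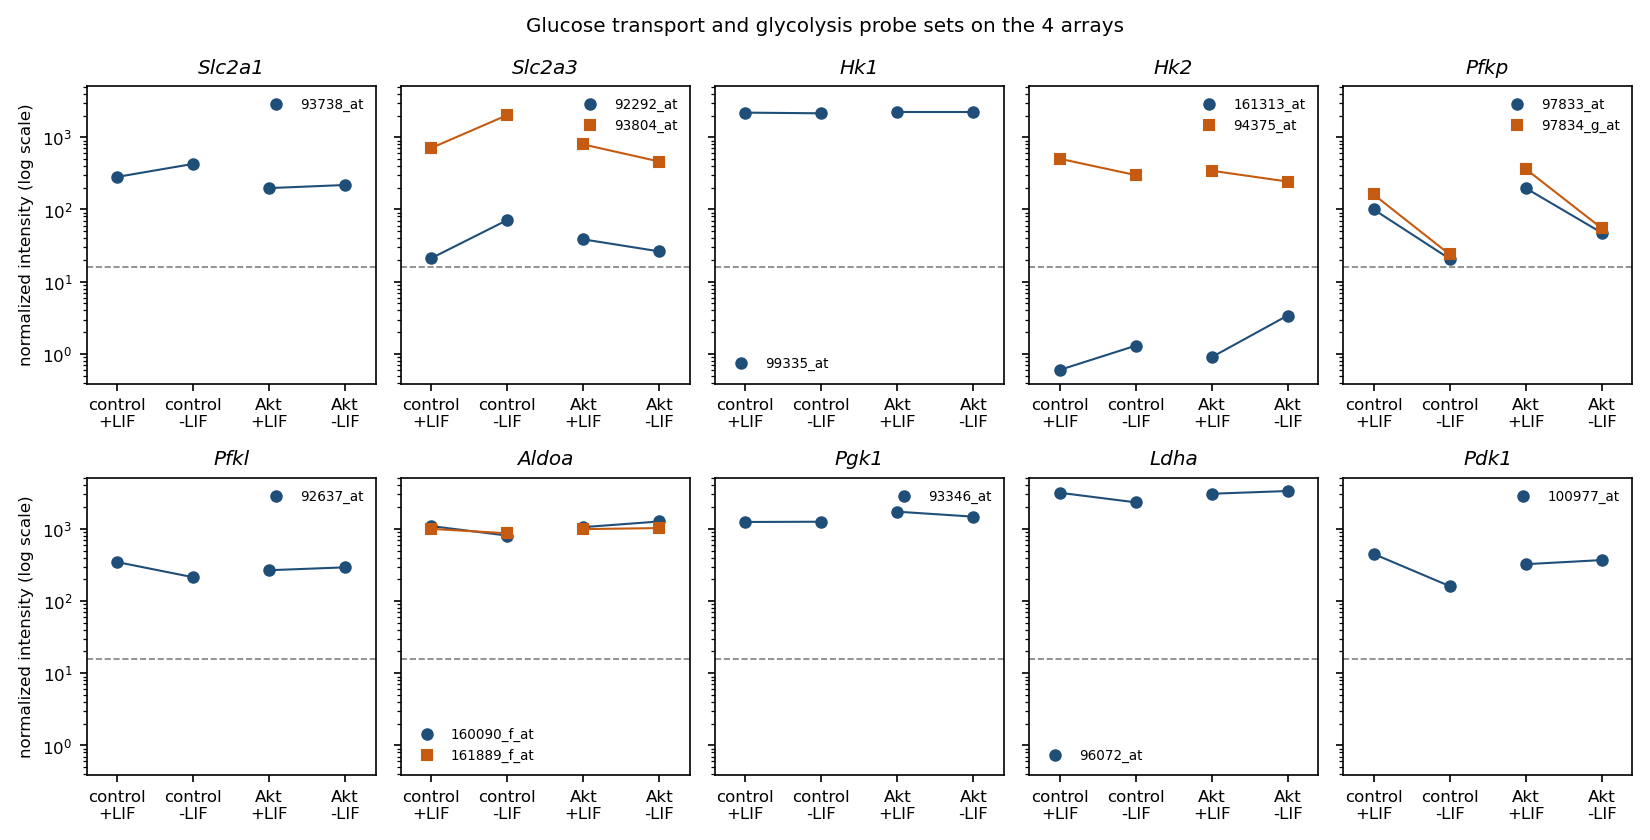
Normalized intensity (vertical axis, log scale) of the 14 probe sets on the 4 arrays (horizontal axis), 1 panel per gene, with 1 point per array and lines joining the arrays of one line. The dashed line is the floor of 15.8, and 1 Hk2 probe set lies below it on all 4 arrays. Pfkp drops from 161.4 to 23.9 in control cells and from 364.9 to 55.2 in Akt cells.

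The intensities given here are on a linear scale after quantile normalization, which gives the arrays one common distribution. A floor of 15.8, which is the 40th percentile over all arrays, replaced lower values before log2 was taken. A difference is 1 array minus another on the log2 scale, and at least 2-fold is the threshold for naming it different. With 1 array per group no test of a single comparison is possible. The error given instead is the SD of log2 differences between probe sets of the same gene around that gene's mean. It was 0.411 for LIF withdrawal in control cells, 0.351 for LIF withdrawal in Akt cells, 0.359 for Akt against control with LIF and 0.411 for Akt against control without LIF. It covers differences between probe sets and not between cultures.

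Some features of the arrays set the array of control cells without LIF apart. Measures of RNA integrity differed between probes: its ratio of actin 3' to 5' signal was the lowest at 1.66, against 2.33 to 3.04 on the other arrays, while its Gapdh ratio was the highest at 3.19, against 2.46 to 3.05. Of 10 markers of undifferentiated stem cells, 9 were above the floor on every array and Esrrb on none. Their summed intensity was 4097.7 there, against 10888.2 in control cells with LIF, and 11553.2 and 7285.5 in Akt cells with LIF and after its withdrawal. Bright markers weigh most in this sum, such as Dppa5a with 2253.1 in control cells without LIF. Without LIF, 8 of the 9 markers were higher in Akt than in control cells, and Nanog was slightly lower (646.5 against 696.5). Of 11 fibroblast or feeder markers, 10 were above the floor in control cells without LIF and 5 or 6 on the other arrays. Their summed intensity was 663.4 there and 292.8 to 380.0 elsewhere. Dcn and Col3a1 were below the floor on both Akt arrays, and Postn on all 4. The probe sets of Pdgfra differed. The one with the highest mean was higher on the Akt arrays, at 74.4 with LIF and 37.1 without, against 9.2 and 21.6 in control cells. The other one above the floor read 37.7 with LIF and 28.1 without in Akt cells, against 23.6 and 32.4 in control cells. Without LIF it was slightly lower in Akt cells, with a log2 difference of -0.2. Thy1 was lowest in control cells without LIF, at 27.6. Lum (15.9) and Loxl1 (18.7) lay close to the floor there. Counted with 1 probe set per gene, 7 of 10 of these markers were lower in Akt than in control cells without LIF. The other 3 were higher, among them Pdgfra by its probe set with the highest mean. The part of these features in the values below was not tested. In RNA of whole cultures, fewer cells that express a gene and less RNA per cell cannot be told apart. Akt1 had intensities of 77.8, 112.4, 71.0 and 71.6 in control cells with and without LIF and Akt cells with and without LIF. Which Akt gene was introduced is not stated, and the label is not checked by these values.

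Of the 10 genes, 9 have a start site window in the RefSeq promoter table of build GRCm38.p6, and Slc2a3 has none there. The windows of Pfkp, Pdk1 and Hk2 are shown because these 3 genes had the most negative log2 differences after LIF withdrawal in control cells. Each runs from 250 bases before to 50 bases after an annotated start, on the strand of the gene. Capitals mark ACGTG or GCGTG on either strand (CACGT or CACGC where the match lies on the other strand), the core that hypoxia-inducible factor binds.
Pfkp promoter, chr13:6648722-6649021, strand -: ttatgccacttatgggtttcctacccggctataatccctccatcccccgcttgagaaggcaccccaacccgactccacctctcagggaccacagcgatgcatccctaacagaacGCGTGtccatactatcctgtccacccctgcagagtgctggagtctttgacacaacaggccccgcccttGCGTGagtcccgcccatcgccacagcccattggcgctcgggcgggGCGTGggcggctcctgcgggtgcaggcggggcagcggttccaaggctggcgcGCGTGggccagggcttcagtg
Pdk1 promoter, chr2:71872974-71873273, strand +: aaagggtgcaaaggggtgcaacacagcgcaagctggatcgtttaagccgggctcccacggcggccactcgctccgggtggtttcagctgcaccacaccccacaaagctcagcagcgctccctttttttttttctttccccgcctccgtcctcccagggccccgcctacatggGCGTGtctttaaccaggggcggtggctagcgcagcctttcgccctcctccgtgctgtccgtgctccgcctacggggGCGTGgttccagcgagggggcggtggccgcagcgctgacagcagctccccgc
Hk2 promoter, chr6:82774405-82774704, strand -: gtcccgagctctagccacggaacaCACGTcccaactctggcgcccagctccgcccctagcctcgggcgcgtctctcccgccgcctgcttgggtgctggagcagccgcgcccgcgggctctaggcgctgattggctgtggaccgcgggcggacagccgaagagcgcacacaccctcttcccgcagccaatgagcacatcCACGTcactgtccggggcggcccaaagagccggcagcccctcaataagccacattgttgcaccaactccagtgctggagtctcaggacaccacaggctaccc
The Pfkp window held 4 matches, the Pdk1 window 2 and the Hk2 window 2. A second Pdk1 window, at a later start, held none. Over all members, 11 of 14 windows held at least 1 match, and each of the 9 genes had such a window. Of 32851 windows of the same length in the table, 43.8% held a match. The windows of one gene can overlap, as 2 of Aldoa do, and the core holds a CG step. GC content was 56.7% to 67.3% in the members' windows with a match and 40.3% to 52.7% in those without. The median over all windows was 52.7%. The E-box CACGTG, which contains ACGTG, was found in 1 window, that of the first Ldha start, and in 7.15% of all windows. The STAT motif TTCNNNGAA and the FOXO motif TGTTTAC, both searched on both strands, were in none of the members' windows and in 8.30% and 3.65% of all windows. These matches are descriptions of letters and not of binding.

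The glucose transporter genes differed from each other in their patterns. Slc2a3, which encodes the high-affinity transporter GLUT3, had 2 probe sets with separate accessions. The probe set 93804_at had intensities of 711.4 (with LIF) and 2029.9 (without) in control cells and of 794.4 (with LIF) and 461.6 (without) in Akt cells. Control cells without LIF stood above the other 3 arrays, and Akt cells without LIF lay lowest. The probe set 92292_at, much dimmer, read 21.2, 71.5, 38.6 and 26.3 on the same arrays and had the same array at the top. Control cells had a Slc2a3 level 2.85-fold higher without LIF by the first probe set and 3.37-fold higher by the second (log2 differences of 1.51 and 1.75). In Akt cells the same withdrawal gave log2 differences of -0.78 and -0.55, lower by less than 2-fold, except that scaling to the hybridization controls gave -1.01 for 93804_at. Without LIF, Slc2a3 was 4.4-fold and 2.72-fold lower in Akt cells than in control cells. With LIF the lines differed by 0.16 at 93804_at, under the spread between probe sets and turned to -0.40 with the intensities as deposited, and by 0.87 at 92292_at. A higher floor, at the 60th percentile, left the dim probe set with 0.58 after LIF withdrawal in control cells and -0.58 for Akt against control without LIF.

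Slc2a1 encodes GLUT1, the transporter that most dividing cells use. Its probe set read 282.8 (with LIF) and 428.0 (without) in control cells, and 197.9 (with LIF) and 218.4 (without) in Akt cells. Both control arrays lay above both Akt arrays. The log2 difference between Akt and control cells was -0.51 with LIF and -0.97 without LIF, where it was 1.96-fold lower. Both passed 2-fold with the intensities as deposited (-1.11 and -1.22). LIF withdrawal gave 0.60 in control cells. In Akt cells it gave 0.14, under the spread between probe sets and turned to -0.07 when the arrays were scaled to the hybridization controls. The order of the arrays was control without LIF, control with LIF and then the Akt arrays, whose difference lay within that spread.

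The hexokinase genes differed in how much they varied. Hk1, the widely expressed form, read 2192.7 and 2146.0 in control cells with and without LIF and 2262.0 on both Akt arrays. No log2 difference of Hk1 exceeded 0.08 in size, below the spread between probe sets, and its direction turned with the intensities as deposited (-0.50 for Akt against control with LIF). Hk2, the form that hypoxia and insulin signalling induce in muscle and tumour cells, read 504.7 (with LIF) and 299.8 (without) in control cells, and 344.6 (with LIF) and 243.8 (without) in Akt cells. It was highest in control cells with LIF and lowest in Akt cells without LIF. LIF withdrawal gave log2 differences of -0.75 in control cells and -0.50 in Akt cells, and Akt against control gave -0.55 with LIF and -0.30 without, the last under the spread between probe sets. None reached 2-fold, except with the intensities as deposited, which gave -1.13 after LIF withdrawal in control cells and -1.12 for Akt against control with LIF. A second Hk2 probe set, 161313_at, was below the floor on all 4 arrays with intensities of 0.6 to 3.4 and gave no value.

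Phosphofructokinase showed the clearest contrast between forms of one enzyme. Pfkp, the platelet form, was measured by 2 probe sets built on the same accession, which are not independent of each other. The probe set 97834_g_at read 161.4 (with LIF) and 23.9 (without) in control cells, and 364.9 (with LIF) and 55.2 (without) in Akt cells. In the same order 97833_at read 100.2, 20.8, 198.0 and 47.7. Both arrays with LIF lay above both arrays without it, and within each medium the Akt array lay above the control array. The array of control cells without LIF lay close to the floor, so its values are the least certain of the 4.

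Without LIF, Pfkp was 6.76-fold lower in control cells and 6.60-fold lower in Akt cells by 97834_g_at. By 97833_at it was 4.81-fold and 4.15-fold lower. Of 7985 probe sets compared in control cells, 16 had a more negative difference than 97834_g_at, and of 7918 in Akt cells 8 had. Under the main and the 6 other scalings and floors tried, Pfkp stayed over 2-fold lower by both probe sets, with log2 differences between -1.07 and -2.96 in control cells and between -1.75 and -2.93 in Akt cells. Akt against control gave log2 differences of 1.18 and 0.98 with LIF and of 1.21 and 1.20 without LIF, so the level was higher in Akt cells in both media. The intensities as deposited lowered the value for 97834_g_at to 0.63 with LIF and to 0.85 without, and a floor at the 60th percentile lowered it to 0.21 without LIF.

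Pfkl, the liver form, did not share that pattern. It read 345.6 (with LIF) and 213.1 (without) in control cells, and 266.8 (with LIF) and 292.4 (without) in Akt cells. After LIF withdrawal its log2 difference was -0.70 in the control line and 0.13 in Akt cells, the latter under the spread between probe sets and turned to -0.09 with scaling to the hybridization controls. Control cells without LIF were lowest for both forms, but Pfkl stayed within 2-fold on all 4 comparisons, except that the intensities as deposited gave -1.03 after LIF withdrawal in control cells.

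The enzymes further down the pathway varied little. Aldoa encodes the aldolase that splits fructose 1,6-bisphosphate. Its probe sets carry the suffix f, by which Affymetrix marks sets whose probes can match related sequences. The probe set 160090_f_at read 1088.6, 803.8, 1053.4 and 1262.0 in control cells with and without LIF and Akt cells with and without LIF, and 161889_f_at read 997.1, 865.7, 988.9 and 1021.9. Pgk1, which makes ATP from 1,3-bisphosphoglycerate, read 1241.5, 1251.4, 1723.0 and 1471.0 in that order. Control cells without LIF were lowest for both Aldoa probe sets, and both Akt arrays were above both control arrays for Pgk1, a difference that was -0.01 with LIF when the intensities were used as deposited. The largest log2 difference among these 3 probe sets was 0.65, for 160090_f_at in Akt against control cells without LIF. Matches of their probes to pseudogenes or to paralogs were not checked, since probe sequences were not used here.

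Ldha and Pdk1 act at the fate of pyruvate, and both were lowest in control cells without LIF. Ldha, the lactate dehydrogenase subunit favoured in glycolytic cells, read 3152.1 (with LIF) and 2322.2 (without) in control cells, and 3052.9 (with LIF) and 3330.0 (without) in Akt cells. LIF withdrawal gave log2 differences of -0.44 (control) and 0.13 (Akt), and the difference was 0.52 for Akt against control without LIF. Pdk1 read 448.6 (with LIF) and 160.8 (without) in control cells, and 323.2 (with LIF) and 368.4 (without) in Akt cells. The array of control cells without LIF was set apart, and the other 3 lay between 323.2 and 448.6. Pdk1 was 2.79-fold lower in control cells after the withdrawal, where 2.22% of all probe sets had a more negative difference. In Akt cells the log2 difference was 0.19, under the spread between probe sets and turned to -0.06 with scaling to the hybridization controls. Without LIF, Pdk1 was 2.29-fold higher in Akt cells than in control cells, a log2 difference of 1.20 that was 0.89 with the intensities as deposited. With LIF the difference was -0.47, or -1.04 as deposited.

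**Figure D2:**
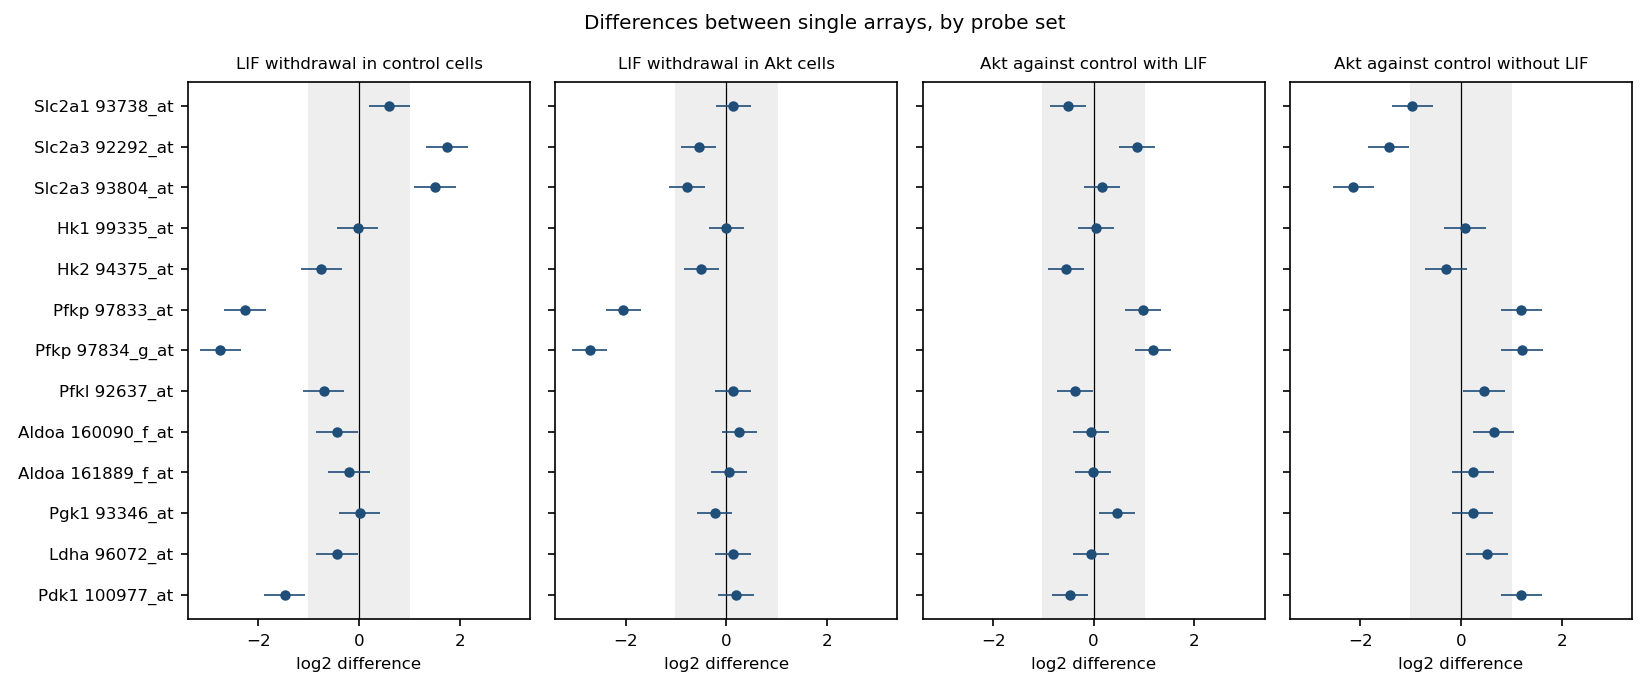
Log2 difference (horizontal axis) of the 13 probe sets above the floor (vertical axis) in the 4 comparisons, each between single arrays. Bars are 1 SD of differences between probe sets of one gene in that comparison, and the grey band spans differences under 2-fold. Slc2a3, Pfkp and Pdk1 lie outside the band after LIF withdrawal in control cells, and Pfkp alone does in Akt cells.

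Counted over the pathway, LIF withdrawal in control cells left 3 probe sets at least 2-fold lower (both of Pfkp and that of Pdk1) and 2 at least 2-fold higher (both of Slc2a3) among the 13 above the floor. Of all probe sets compared there, 6.19% were at least 2-fold lower and 7.19% at least 2-fold higher. The members' count is 38.5% in either direction against 13.4% of all probe sets, but it comes from 3 genes, of which Pfkp and Slc2a3 count with 2 probe sets each. The other 8 probe sets lay between. The median log2 difference of the 13 was -0.44, against -0.02 over all probe sets compared, with 9 below 0 and 4 above.

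In Akt cells, LIF withdrawal left both Pfkp probe sets at least 2-fold lower and no member at least 2-fold higher, among 13. The share of all probe sets was 3.51% lower, 2.87% higher and 6.38% either. The median over the members was 0.00 and over all probe sets 0.01. With LIF, Akt against control cells gave 1 member probe set at least 2-fold higher, 97834_g_at of Pfkp, and none lower. This share of 7.69% was near the background, where 3.28% of all probe sets were higher, 3.51% lower and 6.78% either. Without LIF, Akt against control cells gave 3 higher (both of Pfkp and that of Pdk1) and 2 lower (both of Slc2a3). Of all probe sets, 5.59% were higher and 7.85% lower in that comparison. The comparisons share arrays in pairs, so these counts are not independent of each other. In particular, LIF withdrawal in control cells and Akt against control without LIF both rest on the array of control cells without LIF.

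The responses of the lines to LIF withdrawal were then set side by side, using no array in common. For 97834_g_at of Pfkp they were -2.76 in control cells and -2.72 in Akt cells, a difference of 0.03 between the responses. For 97833_at that difference was 0.21. Slc2a3 responded in opposite directions, and the response of Akt cells lay 2.30 and 2.31 below that of control cells at the 2 probe sets. The response of Pdk1 lay 1.67 above, that of Pfkl 0.83 above, those of Aldoa 0.70 and 0.25 above and that of Ldha 0.57 above. Hk2 had 0.25, Hk1 0.03, Pgk1 -0.24 and Slc2a1 -0.46. In all, 9 of 13 member probe sets had a more positive response in Akt cells, against 52.2% of 6511 probe sets above the floor on all 4 arrays, and the medians were 0.21 and 0.04. A difference between responses has no residual error with 4 arrays and was not tested.

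**Figure D3:**
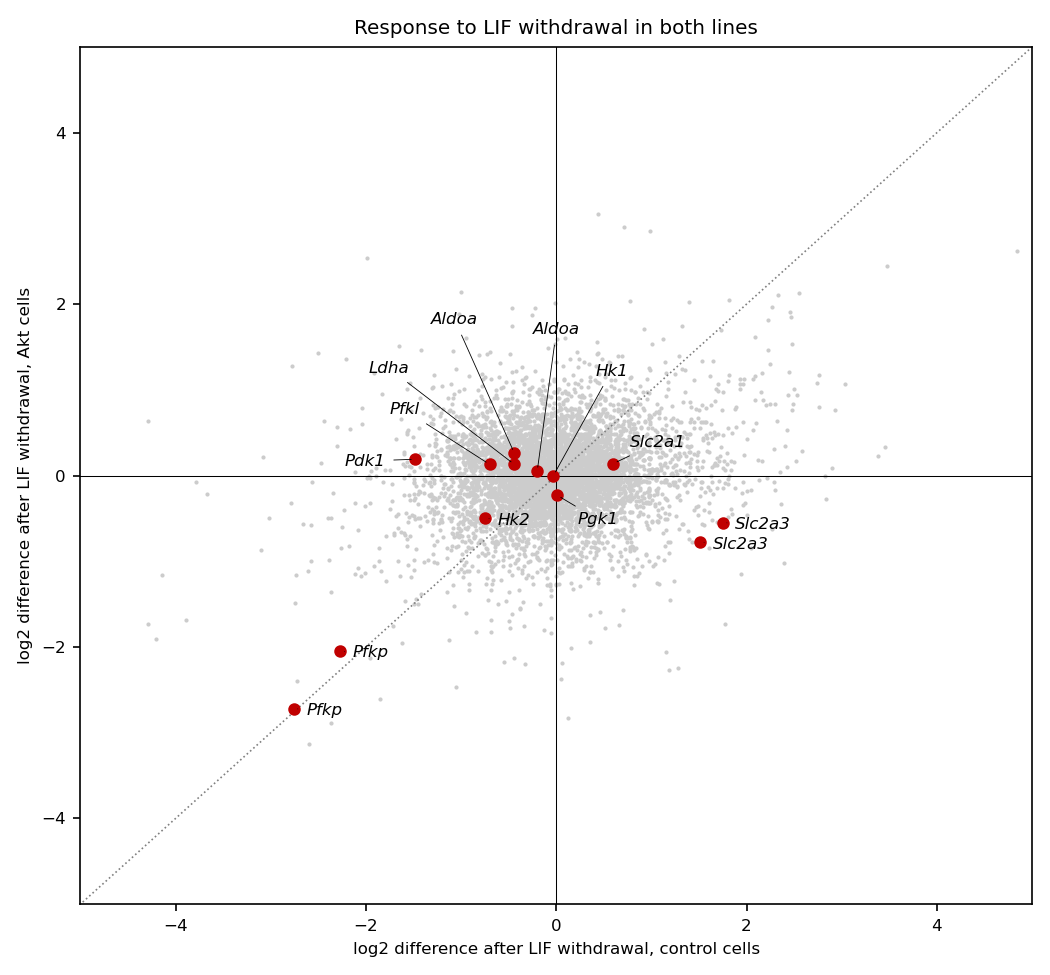
Log2 response to LIF withdrawal of control cells (horizontal axis) and Akt cells (vertical axis) for 6511 probe sets above the floor on all 4 arrays (grey) and 13 member probe sets (red, with gene names). The dotted line marks equal responses. Both Pfkp points lie on or next to it at the lower left, while Slc2a3 and Pdk1 lie far to the right and left near the horizontal axis.

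What both lines share was fitted with limma over all 4 arrays, with a term for LIF and a term for the line. For each probe set, limma joins how far its responses differ between the lines (1 degree of freedom) with the spread typical of all fitted probe sets. The latter weighs more, with 5.557 prior degrees of freedom in the main fit and 8.6947 with 1 probe set per gene. The SE of 97834_g_at of Pfkp, whose responses differed by 0.03, thus comes mostly from other probe sets. For LIF, 97834_g_at of Pfkp had a log2 effect of -2.74 (SE 0.29) and an adjusted p of 0.12 by limma, with an unadjusted p of 4.8e-05, and 97833_at had -2.16 (SE 0.29) and an adjusted p of 0.13. No member passed the adjusted threshold of 0.05, and neither did any of the 8417 probe sets (0.0%), of which 648 had an unadjusted p under 0.05. When the fit was restricted to 1 probe set per gene, limma called 19 of 6258 genes for LIF (0.304%), and Pfkp was among them with the same effect of -2.74 (SE 0.32) and an adjusted p of 0.016. The call for Pfkp thus depended on which probe sets entered the fit. Its effect was the same because both values are of 97834_g_at, and the effect of a probe set is estimated from its own values alone.

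For the line, limma called 5 of 8417 probe sets (0.0594%) and no member. The members with the smallest p were 97834_g_at and 97833_at of Pfkp, with log2 effects of 1.19 and 1.09 and adjusted p of 0.29 and 0.35, and Slc2a1, with -0.74 and an adjusted p of 0.60. With 1 probe set per gene, 39 of 6258 genes were called (0.623%), and the adjusted p of Pfkp was 0.18 and that of Slc2a1 0.51. None of the other members passed in either fit. Slc2a3, whose responses were opposite, had log2 effects for LIF of 0.36 (SE 0.53) at 93804_at and 0.60 (SE 0.54) at 92292_at. Its standard errors were the widest among the members.

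The rest of glucose and pyruvate metabolism was examined in 7 further lists and in hypoxia-responsive genes outside glycolysis, with 1 probe set per gene. Among all genes above the floor, 7.39% were at least 2-fold higher and 6.4% lower after LIF withdrawal in control cells, and 3.01% and 3.65% in Akt cells. Of 12 other glycolytic enzyme genes above the floor, 1 was at least 2-fold lower and none higher in control cells after withdrawal. That was Pfkm, the muscle phosphofructokinase, which read 38.4 with LIF and lay under the floor without it, at least 2.43-fold lower. The list's median was -0.31, with 9 of 12 genes below 0, against -0.03 for all genes. In Akt cells 1 of 12 was lower, Pgm2, a phosphoglucomutase gene, at 2.26-fold, and the median was -0.10. Ldhb, the lactate dehydrogenase subunit of oxidative tissues, was 2.68-fold lower in Akt cells than in control cells without LIF, at 140.0 against 375.6, where Ldha had the opposite direction. The list's median in that comparison was 0.39, with 7 of 11 genes above 0, against 0.06 for all genes. No gene of this list was 2-fold different between the lines with LIF.

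The other sugar and lactate transporter list had 9 genes on the array, of which 4 were above the floor in control cells and 5 in Akt cells. None was 2-fold different after LIF withdrawal in control cells or between the lines. In Akt cells Txnip, an inhibitor of glucose uptake, was 2.07-fold lower without LIF at its brighter probe set, while its other probe set had a log2 difference of 0.59. The 1 PFKFB gene above the floor, Pfkfb3, had -0.52 in control cells and at least 0.59 in Akt cells after withdrawal. The latter is a bound, since Pfkfb3 read 6.8 in Akt cells with LIF, under the floor, and 23.7 without. No gene of 6 of the pyruvate dehydrogenase complex and its regulators, besides Pdk1, was 2-fold different in any comparison, with log2 differences between -0.89 and 0.74. Likewise none of 16 citric acid cycle genes was. In control cells 15 of those 16 lay below 0 after LIF withdrawal with a median of -0.22, and 11 of 16 in Akt cells with a median of -0.24. For Akt against control cells without LIF, 14 of 15 lay above 0 with a median of 0.39. The medians of all genes in these comparisons were -0.03, 0.01 and 0.06, and the shares of all genes below or above 0 were not counted. The first and the last comparison share the array of control cells without LIF, so their counts are not independent.

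**Figure D4:**
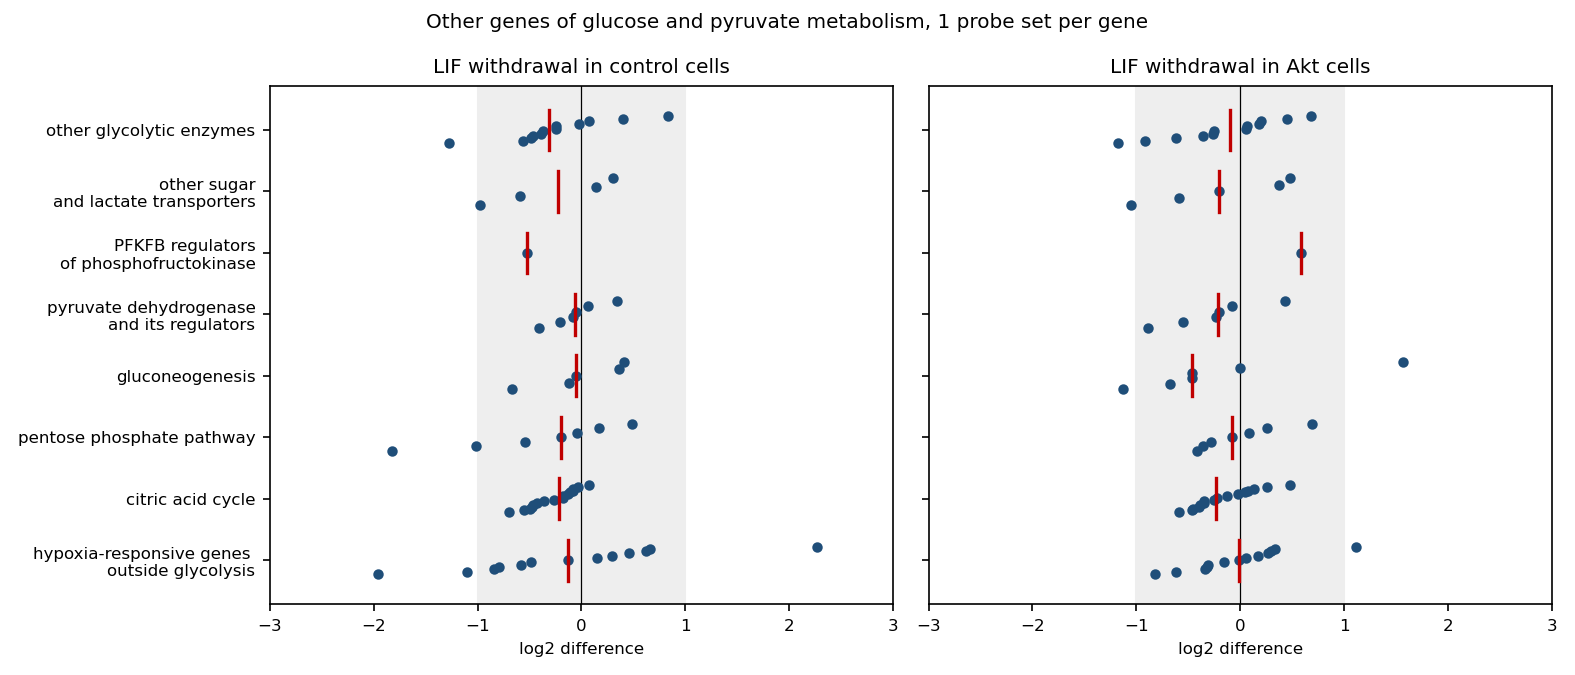
Log2 difference after LIF withdrawal (horizontal axis) in control cells (left) and Akt cells (right) for genes of 8 lists (vertical axis), 1 point per gene above the floor. The red bar is the median of the list and the grey band spans differences under 2-fold. Medians lie between -0.52 and -0.05 in control cells, and the points outside the band are single genes.

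Of 7 genes of gluconeogenesis, which runs the pathway in reverse, 3 were at least 2-fold different between the lines, and 2 of these 3 also within the Akt line. Fbp2, a muscle fructose bisphosphatase gene, was below the floor on both control arrays and read 77.2 in Akt cells with LIF and 56.1 without, at least 4.90-fold and 3.55-fold higher. Fbp1, the liver form of that enzyme, read 17.2 and 2.8 in control cells and 24.1 and 71.9 in Akt cells, with LIF given first. Fbp1 was 2.98-fold higher after withdrawal in Akt cells and at least 4.56-fold higher in Akt than in control cells without LIF. Pck2, the mitochondrial phosphoenolpyruvate carboxykinase, was 2.80-fold higher in Akt cells with LIF and 2.04-fold higher without, and 2.19-fold lower after withdrawal in Akt cells. Over the list, 2 of 7 genes with LIF and 3 of 7 without were at least 2-fold higher in Akt cells and none was lower. Among all genes, 3.50% were higher and 3.64% lower with LIF, and 5.87% and 8.12% without. These genes lie at intensities under 80 and so near the floor.

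Of 7 pentose phosphate pathway genes, Prps1, which makes phosphoribosyl pyrophosphate for nucleotide synthesis, was 3.54-fold lower after LIF withdrawal in control cells (740.4 and 209.4) and the transketolase gene Tkt 2.02-fold lower (376.9 and 186.4). In Akt cells neither was 2-fold different, with log2 differences of -0.08 and 0.09, and Prps1 was 2.23-fold higher in Akt than in control cells without LIF. Among all genes, 6.4% were at least 2-fold lower after LIF withdrawal in control cells. For Akt against control cells without LIF, 5.87% were at least 2-fold higher. Prps1 and Tkt had their lowest value on the array of control cells without LIF, as did Pfkp, Pdk1, Pfkl, Aldoa and Ldha. Slc2a1 and Slc2a3 were highest on that array, and Hk2 was lowest in Akt cells without LIF. The share of all genes with their lowest value in control cells without LIF was not counted.

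Single hypoxia-responsive genes differed at least 2-fold in both directions after LIF withdrawal in control cells and between the lines. After LIF withdrawal in control cells, 1 of 13 was at least 2-fold higher and 2 were lower, with a median of -0.13. Among all genes, 7.39% were higher and 6.4% lower there, with a median of -0.03. Bnip3, a mitochondrial protein gene that hypoxia induces, was 3.90-fold lower, and the histone demethylase gene Kdm3a 2.15-fold lower. Bhlhe40, a transcription repressor gene, was 4.81-fold higher. Without LIF, Akt cells had 3 of 13 higher than control cells (Bnip3 3.38-fold, Ndrg1 2.26-fold and the mTOR inhibitor gene Ddit4 2.08-fold) and 1 lower (Bhlhe40, 5.84-fold). Most of the list lay above 0 in Akt against control cells, 10 of 13 genes without LIF (median 0.47, against 0.06 for all genes) and 11 of 13 with LIF (median 0.25, against 0.01). With LIF, Ddit4 was 2.66-fold higher and Egln1, an oxygen sensor that marks hypoxia-inducible factor for degradation, 2.62-fold lower in Akt cells. After withdrawal in Akt cells Egln1 was the 1 gene at least 2-fold different, 2.18-fold higher, where 3.01% of all genes were higher and 3.65% lower. Both differences of Egln1 rest on its value of 18.5 in Akt cells with LIF, close to the floor. The values of Bnip3 over the 4 arrays (96.5, 24.8, 104.5 and 83.6 in control cells with and without LIF and Akt cells with and without LIF) had their minimum on the same array as Pdk1, Pfkl and Ldha. Bhlhe40 had its maximum on that array, at 262.6. How many of all genes have a minimum or maximum there was not counted.

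The genes whose profile over the 4 arrays was nearest to that of Pfkp, the member with the widest range, were sought among 5027 genes above the floor on all 4. The measure was the root mean square difference between log2 profiles, each centred on its own mean. Nearest were Tcl1, whose product binds and activates Akt, at 0.296, the transcription factor genes Tfcp2l1 at 0.357 and Klf4 at 0.470, then the lysosomal galactosidase gene Glb1 at 0.487 and Tm7sf3 at 0.522. Tcl1 read 103.3, 17.1, 200.4 and 22.9 in control cells with and without LIF and Akt cells with and without LIF, so it shares with Pfkp the order of all 4 arrays. Tfcp2l1 read 312.0, 86.4, 750.0 and 123.0, again in the order of Pfkp. Klf4, which is also among the stem cell markers above, read 568.2, 86.4, 619.6 and 117.0. All 5 genes had the array order of Pfkp, with both arrays with LIF above both arrays without it. They were chosen for nearness to the profile of Pfkp, so this likeness follows from the choice and is no separate result. Each profile has 4 points, and no other member of the pathway was among the 5.

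**Figure D5:**
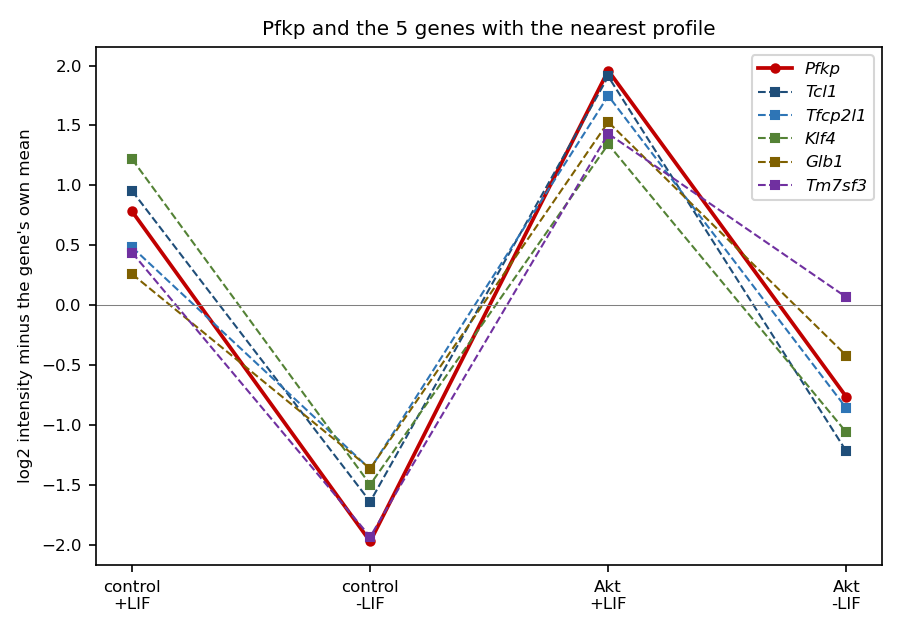
Log2 intensity minus the gene's own mean (vertical axis) on the 4 arrays (horizontal axis) for Pfkp (solid line) and the 5 genes nearest to it (dashed lines), with 1 point per array. All 6 genes are higher with LIF than without it in both lines, which follows from choosing the 5 for nearness to Pfkp.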

How the data were processed

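The authors deposited 1 table of intensities on a linear scale, 1 value per probe set and array. Of software and scaling, the sources used here give nothing. All 12488 probe sets were read, 66 array controls were set aside, and the other 12422 were brought to one distribution by quantile normalization (limma 3.58.1, R 4.3.3), because the 2% trimmed means as deposited ran from 80.3 to 121. Values under the 40th percentile (15.8) were set to that floor before log2. The platform annotation gave 10833 probe sets 1 gene symbol, 396 several and 1193 none, and symbols were updated by gene identifier through RefSeq (GRCm38.p6), which held 10817 of them. For the lists, the probe set with the highest mean stood for a gene.

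The 4 comparisons are between single arrays, with no test. An additive limma model (lmFit and eBayes, two-sided, Benjamini-Hochberg, 1 residual degree of freedom) gave the terms for LIF and line. Its p-values measure only the spread between these 4 arrays, taken mostly from all fitted probe sets together. Scaling, floor and choice of probe sets were varied. Every member is named, and Pfkp's neighbours by the smallest profile distance. Genes of the metabolic and hypoxia lists are named at 2-fold or more (at most 4 per list and comparison). Pfkfb3 is named as the only gene of its list above the floor. The cell type markers were not named by that rule, and some with larger differences are left out. The members and lists were chosen with earlier results of these data known. Precision is limited by the number of arrays.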

Additional observations from a re-analysis of the deposited data

Results flagged for a closer look

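Slc2a3 and Pdk1 drew attention because the lines went in opposite directions after LIF withdrawal, with at least 2-fold in 1 of them. The response of Akt cells minus that of control cells was -2.31 at Slc2a3 92292_at (-0.55 and 1.75) and -2.30 at Slc2a3 93804_at (-0.78 and 1.51). For Pdk1 it was 1.67 (0.19 and -1.48), where the value in Akt cells is under the spread between probe sets. These differences between the lines were not tested.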

How the results depend on the processing

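No paired analysis was possible because each group holds 1 array. All values in this paragraph other than shares are counts of member probe sets or log2 differences. Of 309 recomputed differences of single member probe sets, 18 crossed the 2-fold threshold and 15 changed sign, and no difference that was at least 2-fold changed sign. With the intensities as deposited, the median of all probe sets moved to -0.51 for Akt against control with LIF and that of the members to -0.53, the count higher from 1 to 0 and the count lower from 0 to 3. In the same setting the count lower after LIF withdrawal in control cells went from 3 to 5, and the count higher for Akt against control without LIF from 3 to 0. Scaling to the hybridization controls gave 3 higher for Akt against control with LIF and 3 lower after withdrawal in Akt cells, where the main count was 2. A floor at the 60th percentile gave 1 higher after withdrawal in control cells, and 1 higher and 1 lower for Akt against control without LIF, where no floor gave 1 higher. With 1 probe set per gene the counts were 1 higher after withdrawal in control cells, 1 lower in Akt cells and 1 lower for Akt against control without LIF, since fewer probe sets were counted, and limma called 1 member for LIF in place of 0. The share of higher among all 2-fold different probe sets was 53.7%, 45.0%, 48.3% and 41.6% for withdrawal in control cells, withdrawal in Akt cells, Akt against control with LIF and without LIF. As deposited it was 30.6%, 44.7%, 6.22% and 17.5%, with medians of all probe sets of -0.25, 0.02, -0.51 and -0.23, and scaled to the hybridization controls 47.0%, 24.6%, 62.3% and 41.3%, with medians of -0.07, -0.16, 0.13 and 0.06. Other than where fewer probe sets were counted, the cause was not tested. Signals near the floor, as of Pfkp in control cells without LIF, limit the size of its differences.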
